A study of Mus musculus with 6 samples.

Results

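The genes for NKp46, for an activating antibody receptor and for the adaptors through which such receptors signal were followed in lymphocytes of the mouse mammary gland. The set has 6 genes of 55450 in the count table, taken by their symbols: Ncr1, Fcgr3, Fcer1g, Tyrobp, Hcst and Cd160. All 6 were found once each, and all passed the filter on low counts. The study asked whether unconventional lymphocytes inside the mammary epithelium act on epithelial and basal cells. Bulk RNA libraries were made from 3 samples of CD8 beta+ T cells and 3 samples of double negative (DN) NK1.1+ cells, all sorted from the glands of mice at the end of pregnancy (E18.5). The labels name no strain, genotype, age or treatment of the mice. They do not say which 2 markers the DN cells lack, and they call these cells lymphocytes in places and T cells in others. Nor do they say whether the libraries of a group came from separate mice, and if they did not, the p-values cover no more than technical spread among these samples. The sort genes followed the labels: Cd8b1, for the CD8 beta chain, had a mean of 947 CPM in CD8 beta+ and 2.56 CPM in DN NK1.1+ libraries, where Cd4 was at 1.35 CPM and Cd8a, for the alpha chain, at 162 CPM.

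Activating receptors of natural killer (NK) cells mostly have short tails that cannot signal alone. They pair in the membrane with small adaptor proteins, whose tails carry tyrosines that kinases phosphorylate. Fcer1g encodes the FcR gamma chain and Tyrobp encodes DAP12, and both carry an immunoreceptor tyrosine-based activation motif (ITAM), which recruits kinases of the Syk and ZAP-70 family. Hcst encodes DAP10, whose motif instead recruits phosphatidylinositol 3-kinase. Ncr1 encodes NKp46, an activating receptor that defines much of the NK cell and group 1 innate lymphoid lineages, and Fcgr3 encodes a low-affinity receptor for antibody that lets NK cells and myeloid cells act on coated targets. Both receptors pair with the FcR gamma chain. Cd160 encodes a surface receptor found on NK cells, intra-epithelial lymphocytes and CD8 T cells, and it binds the TNF receptor family member HVEM.

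The coding bases of the tyrosine motifs show what sets the 3 adaptors apart. The sequences run 5′ to 3′ along the transcript, come from GENCODE M21 on build mm10, and have the tyrosine codons of the motif in capitals.
Fcer1g: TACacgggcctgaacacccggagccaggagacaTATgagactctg
Tyrobp: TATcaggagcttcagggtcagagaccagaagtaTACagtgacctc
Hcst: TACatcaacatg
In Fcer1g and Tyrobp a pair of tyrosine codons lies in 1 ITAM. In Hcst the short motif holds a single tyrosine codon. The Fcer1g motif is coded on the minus strand of chr1:171229889-171230072, across exons 4 and 5 of 5. The Tyrobp motif is coded on the plus strand of chr7:30415670-30417382, also across exons 4 and 5 of 5. The Hcst motif lies in exon 4 of 4, on the minus strand of chr7:30417821-30417832. A search of the coding sequences of Ncr1, Fcgr3 and Cd160 found 0 ITAMs.

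Of the 6 genes, 4 were higher in DN NK1.1+ libraries: both receptors that pair with the FcR gamma chain, Ncr1 and Fcgr3, and both ITAM adaptors, Fcer1g and Tyrobp. The adaptor gene Hcst and the receptor gene Cd160 did not pass the test. Among all 13171 tested genes, 7.84% were called higher and 5.99% lower. A call means an adjusted p under 0.05 (edgeR quasi-likelihood test, Benjamini-Hochberg over all tested genes). None of the 6 was called lower, either at an unadjusted p under 0.05 or with DESeq2 or limma-voom (0 genes each). The median log2 fold change of the 6 was 3.26, beside −0.00330 over all tested genes. Levels below are CPM, the count relative to a library size scaled by TMM, libraries are named in the order of replicates 1, 2 and 3, and fold changes are DN NK1.1+ over CD8 beta+.

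**Figure D1:**
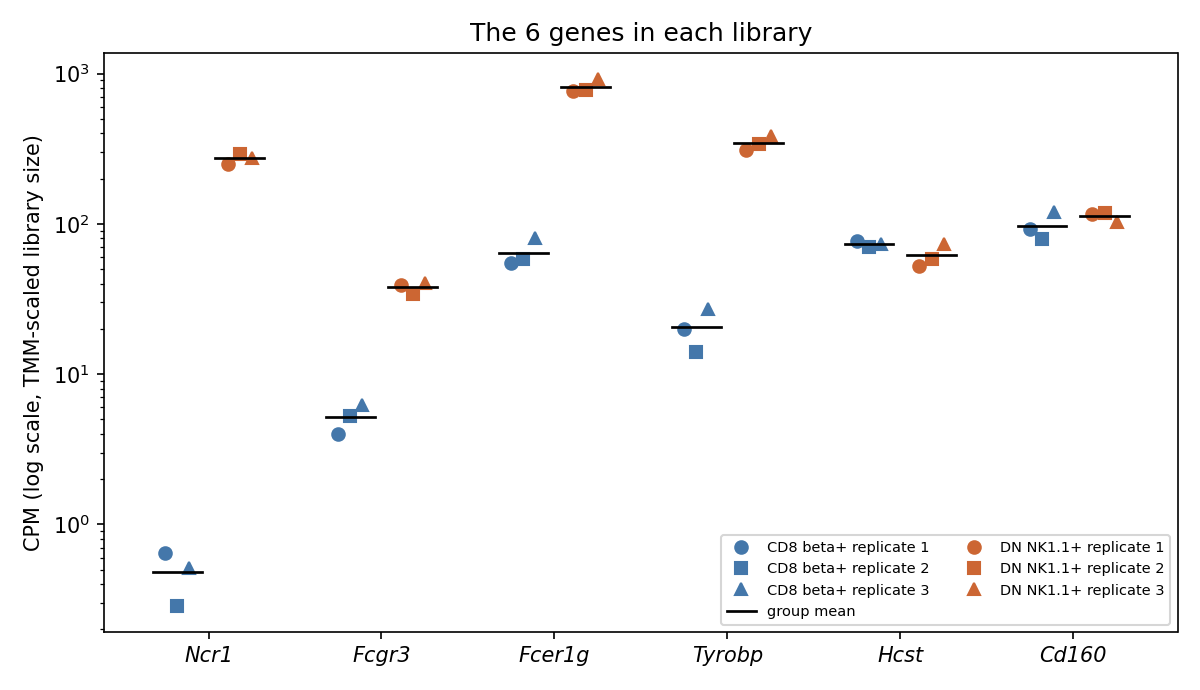
Level of each of the 6 genes in CPM (log axis) in the 3 CD8 beta+ libraries (blue) and the 3 DN NK1.1+ libraries (orange), with black lines for group means. The groups lie apart for Ncr1, Fcgr3, Fcer1g and Tyrobp and overlap for Hcst and Cd160.

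Ncr1 was nearly absent from CD8 beta+ libraries. It was at 0.649, 0.288 and 0.514 CPM there, from only 5, 4 and 5 counts, and at 252, 293 and 274 CPM in DN NK1.1+ libraries, from 2924, 3499 and 3619 counts. Every DN NK1.1+ library was far above every CD8 beta+ library. Ncr1 passed the filter on low counts only through the DN NK1.1+ libraries. The fitted fold change was 592 (95% interval 447 to 785), or 9.21 on the log2 scale with a standard error (SE) of 0.190 (edgeR adjusted p = 1.85e-13). This SE was derived from the F statistic and is smaller than the counting error of the 14 counts in CD8 beta+ libraries alone. The interval is thus too narrow, and the denominator of this fold is the less certain part.

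Of the 4 genes that rose, Fcgr3 had the lowest level in DN NK1.1+ libraries. Its level was 4.02, 5.26 and 6.27 CPM in CD8 beta+ libraries and 39.4, 34.0 and 40.5 CPM in DN NK1.1+ libraries. The groups did not overlap, and the fold change was 7.27 (95% interval 5.29 to 9.98; log2 fold change 2.86, SE 0.215, edgeR adjusted p = 2.31e-07). The genes of the related antibody receptors in the same gene cluster resemble Fcgr3, so that reads may have been split between them. Fcgr2b, for the inhibitory receptor, was at 9.47, 5.98 and 5.75 CPM and at 16.2, 7.78 and 11.7 CPM, with overlapping groups (adjusted p = 0.150). Fcgr4, for another activating receptor, stayed between 0.130 and 1.59 CPM over all 6 libraries.

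Fcer1g, for the chain with which both receptors pair, was well above 0 in CD8 beta+ libraries. It was at 54.5, 58.1 and 80.1 CPM there and at 761, 774 and 915 CPM in DN NK1.1+ libraries. Replicate 3 was the highest in each group, and the groups were far apart. The fold change was 12.7 (95% interval 10.1 to 15.9; log2 fold change 3.67, SE 0.150, edgeR adjusted p = 2.29e-09). Tyrobp, for the adaptor of several Ly49 and NKG2 receptors, was at 20.1, 14.1 and 27.2 CPM in CD8 beta+ libraries and at 308, 338 and 382 CPM in DN NK1.1+ libraries. Replicate 3 was again the highest in each group. The fold change of Tyrobp was 16.9 (95% interval 11.7 to 24.3; log2 fold change 4.08, SE 0.229, edgeR adjusted p = 8.87e-06).

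Hcst, for the adaptor of NKG2D, was at 77.2, 70.1 and 73.5 CPM in CD8 beta+ libraries and at 52.6, 58.4 and 73.8 CPM in DN NK1.1+ libraries. Replicate 3 of DN NK1.1+ lay inside the CD8 beta+ range, and the other DN NK1.1+ libraries lay below it. The fold change was 0.838 (95% interval 0.688 to 1.02; log2 fold change −0.25, SE 0.133, edgeR adjusted p = 0.263). Without DN NK1.1+ replicate 3 the log2 fold change was −0.41 and passed the test (adjusted p = 0.0481; 0.0481 to 0.616 over all alternatives). Cd160 was at 92.8, 78.7 and 119 CPM in CD8 beta+ libraries and at 116, 118 and 103 CPM in DN NK1.1+ libraries. The DN NK1.1+ values lay inside the CD8 beta+ range, with a fold change of 1.16 (95% interval 0.949 to 1.42; log2 fold change 0.22, SE 0.136, edgeR adjusted p = 0.370). A miss of the threshold does not show that levels were equal. For both genes the interval leaves out a 2-fold change in either direction.

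**Figure D2:**
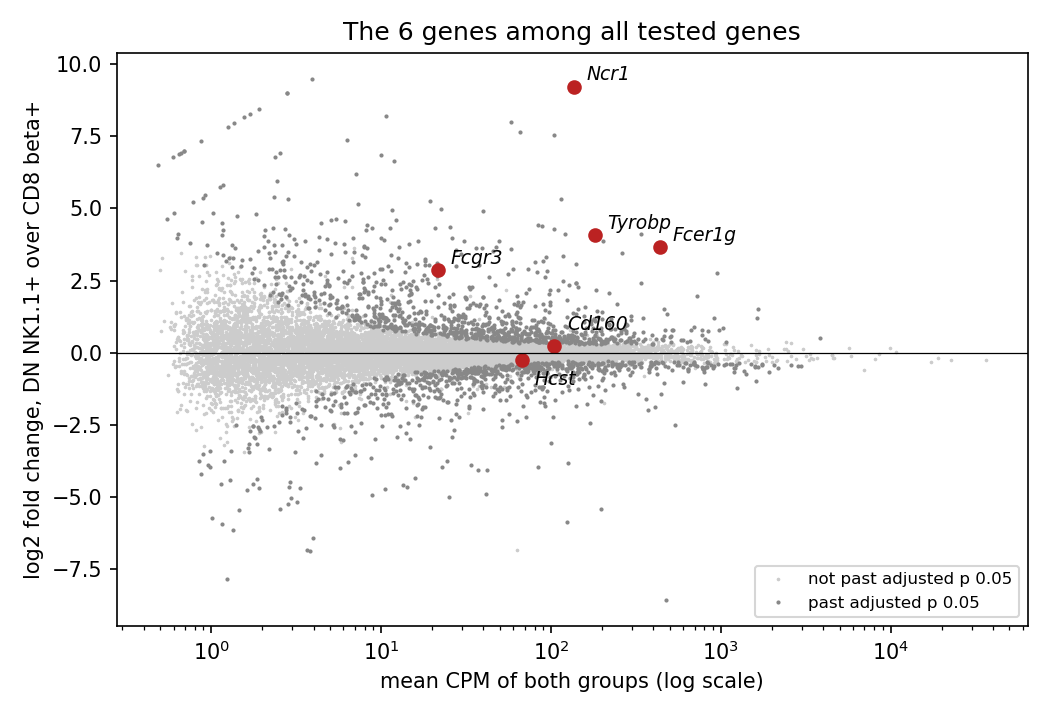
Log2 fold change (DN NK1.1+ over CD8 beta+) against the mean CPM of both groups (log axis) for all 13171 tested genes, with the 6 genes in red and genes past an adjusted p of 0.05 in dark grey. Ncr1 lies at 9.21, Tyrobp, Fcer1g and Fcgr3 between 2.86 and 4.08, and Hcst and Cd160 near 0.

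The levels of different genes can be set side by side only per length, here as CPM per kilobase of the merged annotated exons of each gene. On that scale the order in CD8 beta+ libraries was Hcst at 102 ± 4.93 (SD, n = 3), Fcer1g at 73.5 ± 15.9, Cd160 at 36.7 ± 7.75, Tyrobp at 30.7 ± 9.83, Fcgr3 at 2.99 ± 0.648 and Ncr1 at 0.314 ± 0.118. Among neighbours in this order, only the ranges of Cd160 and Tyrobp overlapped. In DN NK1.1+ libraries the order was Fcer1g at 934 ± 97.8, Tyrobp at 513 ± 55.9, Ncr1 at 177 ± 13.4, Hcst at 85.3 ± 15.2, Cd160 at 42.5 ± 3.03 and Fcgr3 at 21.9 ± 2.03. No neighbours overlapped there. Hcst thus stood above the other 5 genes in CD8 beta+ libraries but below Fcer1g, Tyrobp and Ncr1 in DN NK1.1+ libraries.

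The share of each of 4 adaptor genes lay apart between the groups in all 6 libraries, without a test. Cd247, for the CD3 zeta chain, is another ITAM adaptor gene, whose chain serves the T cell receptor. In DN NK1.1+ libraries Cd247 dropped from 207 ± 7.93 to 109 ± 8.98 CPM (log2 fold change −0.92, SE 0.0974, edgeR adjusted p = 8.52e-06). Of the summed level per kilobase of Fcer1g, Tyrobp, Hcst and Cd247, Fcer1g took 29.8% ± 3.62 in CD8 beta+ libraries and 60.2% ± 0.858 in the DN NK1.1+ ones. Tyrobp took 12.4% ± 2.68 and 33.1% ± 0.824. Hcst took 41.9% ± 4.22 and 5.46% ± 0.378, and Cd247 took 15.9% ± 1.11 and 1.32% ± 0.126. The shares of the 4 genes always sum to the whole, so a share can drop far more than the level of its gene. In CPM per kilobase, Hcst was at 102 ± 4.93 and 85.3 ± 15.2, and Cd247 at 38.8 ± 1.49 and 20.4 ± 1.68. Fcer1g, Tyrobp and Hcst are short and close in length, while the merged exons of Cd247 are long, at 5329 bases. With the length of a single transcript of each gene, an alternative chosen after seeing the data, the share of Cd247 was 29.9% ± 1.46 and 3.31% ± 0.310, and that of Fcer1g was 22.3% ± 3.13 and 59.9% ± 0.738.

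**Figure D3:**
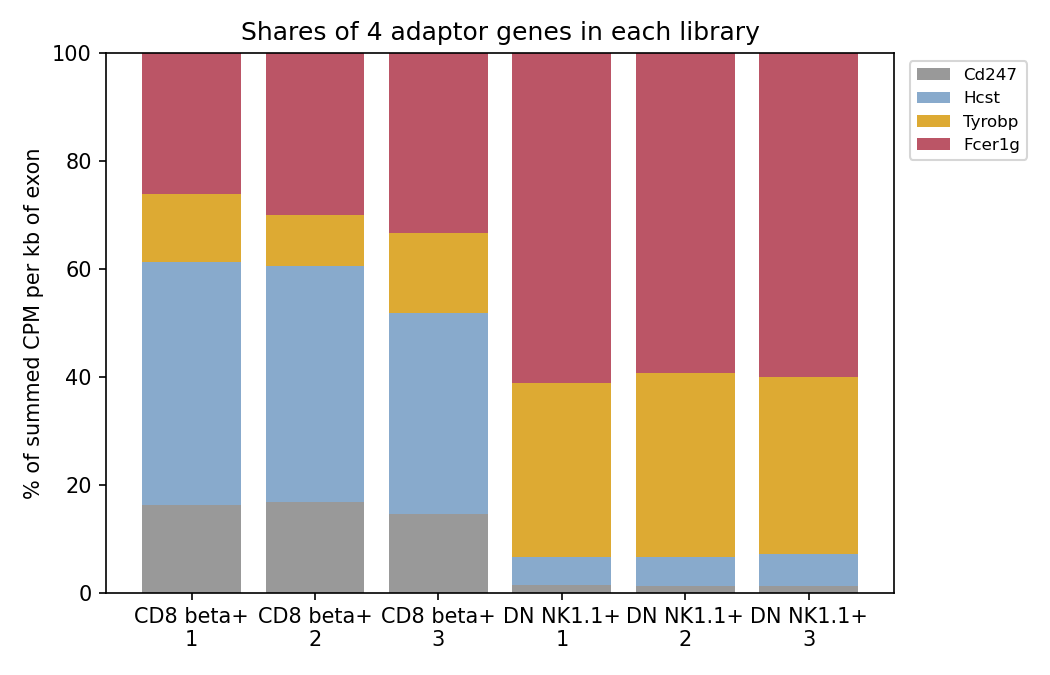
Share of Fcer1g, Tyrobp, Hcst and Cd247 in their summed level (CPM per kilobase of merged exons), as stacked bars for each of the 6 libraries. Hcst is the largest part in the CD8 beta+ libraries, and Fcer1g is the largest in the DN NK1.1+ libraries.

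Ratios of genes within a library do not depend on how libraries are scaled. The log2 ratio of Tyrobp to Hcst was −1.94, −2.31 and −1.43 in CD8 beta+ libraries and 2.55, 2.53 and 2.37 in DN NK1.1+ libraries, a difference of 4.38. That of Fcer1g to Cd247 differed by 4.61, from −1.71 ± 0.259 to 2.91 ± 0.115. For Fcer1g and Tyrobp, which both rose, their log2 ratio was 1.68 ± 0.319 and 1.25 ± 0.0556, a difference of −0.42. Fcgr3 had a log2 ratio to its partner chain gene Fcer1g of −3.62 ± 0.147 and −4.42 ± 0.133, a difference of −0.80. Ncr1 stood the other way to the same chain, with ratios of −6.96 ± 0.635 and −1.58 ± 0.170, a difference of 5.38. The groups lay apart in all 8 pairs compared. Each reached p = 0.1 in a two-sided exact permutation test, the smallest value open to 3 against 3 libraries, and p = 0.1 after Benjamini-Hochberg adjustment over the 8 pairs, so none can pass 0.05. Group levels also failed to overlap in 30.6% of all tested genes.

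Tyrobp and Hcst are neighbours on chromosome 7 that are transcribed towards each other. Tyrobp lies on the plus strand from 30413760 to 30417585 and Hcst on the minus strand from 30417712 to 30419854, with 126 bases between their ends and no shared exon. One rose 16.9-fold while the interval of the other leaves out a 2-fold change. Fcer1g lies on chromosome 1 from 171229572 to 171234365. Fcgr3 lies on the same chromosome from 171051174 to 171064935. Its neighbour Cfap126, 48982 bases away, was at 5.84, 2.96 and 7.71 CPM and at 13.2, 16.7 and 11.9 CPM (log2 fold change 1.36, edgeR adjusted p = 0.0118). Leaving out replicate 2 of either group ended that call (adjusted p = 0.0543 without the CD8 beta+ one and 0.0750 without the other). Ncr1 lies on chromosome 7 from 4337724 to 4345164, between Lilra5 and the platelet collagen receptor gene Gp6, and these neighbours stayed at or under 1.63 CPM in every library. Cd160 lies on chromosome 3 from 96798763 to 96829351, and 68 bases of its exons overlap those of Pdzk1 on the other strand. Pdzk1 stayed between 1.38 and 3.18 CPM and thus far below Cd160. The neighbour of Hcst on its other side, Nfkbid, and that of Cd160, Rnf115, did not pass the test (adjusted p = 0.708 and 0.811).

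The 250 bases before the start of 3 of these genes are given because Ncr1 and Fcer1g rose together while Hcst, the gene next to Tyrobp, did not pass the test. They are RefSeq sequences on build GRCm38.p6, which is mm10, and 5 of the 6 genes had an entry. Tyrobp had none. Capitals mark matches to motifs of 3 factor families with known roles in lymphocytes: TGTGGTT for RUNX, ACAGGAAG for ETS and GGTGTGA for T-box factors. Both strands were searched, and the motifs were chosen after the sequences had been seen.
Ncr1, plus strand, chr7:4337465-4337714: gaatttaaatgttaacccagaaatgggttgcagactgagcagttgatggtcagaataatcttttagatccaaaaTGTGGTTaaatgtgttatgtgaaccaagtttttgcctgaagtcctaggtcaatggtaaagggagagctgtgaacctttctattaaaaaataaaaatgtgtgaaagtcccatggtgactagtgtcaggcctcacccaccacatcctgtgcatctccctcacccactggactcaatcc
Fcer1g, minus strand, chr1:171234350-171234599: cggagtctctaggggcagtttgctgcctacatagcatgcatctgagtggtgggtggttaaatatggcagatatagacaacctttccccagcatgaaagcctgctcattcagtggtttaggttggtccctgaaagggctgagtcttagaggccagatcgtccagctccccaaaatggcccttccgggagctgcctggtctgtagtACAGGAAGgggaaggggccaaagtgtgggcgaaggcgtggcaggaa
Hcst, minus strand, chr7:30419855-30420104: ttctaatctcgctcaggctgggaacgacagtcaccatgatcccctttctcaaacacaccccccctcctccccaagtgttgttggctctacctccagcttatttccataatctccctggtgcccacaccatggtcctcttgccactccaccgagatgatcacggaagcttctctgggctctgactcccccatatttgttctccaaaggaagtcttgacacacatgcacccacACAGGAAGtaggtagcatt
The Ncr1 window holds the RUNX motif, 176 bases before the start, and neither of the others. The windows of Fcer1g and Hcst each hold the ETS motif, 46 and 19 bases before the start. Both windows of Cd160, for its 2 annotated starts, hold the RUNX motif, and the one at chr3:96814522-96814771 also holds the ETS and T-box motifs. The windows of Fcgr3 hold no match. Of all 32851 windows of this length in the table, 4.40% hold the RUNX motif, 2.90% the ETS motif and 3.33% the T-box motif. A match is a string of letters and no measure of binding. The RUNX and ETS motifs were found both in genes that rose and in genes that did not pass the test. The T-box motif was found only in Cd160, which did not pass it.

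Receptors that need these adaptors were described from 2 lists. Of 10 receptors that pair with the FcR gamma chain, 6 were tested, and Ncr1, Fcgr3 and Klrb1c rose. Klrb1c encodes NK1.1, the marker on which the DN cells were sorted, so its own rise, from 37.1 ± 5.66 to 638 ± 21.1 CPM, follows from the sort. As background, NK1.1 also signals through the FcR gamma chain. The 4 untested receptors, found on myeloid cells or platelets, were at or below 0.908 CPM in every library. Of 10 receptors that pair with DAP12 or DAP10, 7 were tested and 5 rose. Klrk1, for NKG2D, which uses DAP10 and in mice also DAP12, was at 86.0, 99.4 and 134 CPM and at 575, 606 and 535 CPM (log2 fold change 2.42, edgeR adjusted p = 1.51e-07). The DAP12 receptor genes Klra4 and Klra8, for the activating receptors Ly49D and Ly49H, rose by 7.97 and 7.64 on the log2 scale, or 8.63 for Klra4 without CD8 beta+ replicate 3. Like Ncr1, both passed the filter on low counts only through the DN NK1.1+ libraries, so they could not have been counted as falling. Klrc2, for NKG2C, rose from 32.6, 56.7 and 44.9 CPM to 247, 244 and 222 CPM. Reads may be split between members of the Klra, Klrb1 and Klrc families, whose sequences are alike.

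Among 9 adaptor subunits of activating receptors, Fcer1g and Tyrobp were the 2 that rose, and Cd247, Cd3d, Cd3e and Cd79b fell. Cd3e and Cd3g encode chains of the T cell receptor complex. Cd3e fell from 763 ± 19.3 to 521 ± 7.22 CPM, and Cd3g was at 727 ± 63.6 and 663 ± 66.6 CPM (adjusted p = 0.501). Cd79b, for a B cell receptor chain, fell from 10.9 ± 3.07 to 4.34 ± 1.42 CPM, a call that was lost on leaving out CD8 beta+ replicate 1 (adjusted p = 0.134) or replicate 2 of DN NK1.1+ (0.0763). Of 11 receptors for antibody, 8 were tested, and Fcgr3 was the 1 that rose. Fcgrt, for the receptor that recycles antibody, had the larger fall of the 2 genes called lower. It was at 6.75, 12.1 and 7.81 CPM and at 1.72, 0.418 and 2.50 CPM (log2 fold change −2.51, edgeR adjusted p = 0.00428). The other, Fcmr, passed the test in the full set of libraries but not without any one of CD8 beta+ replicates 1 and 2 and DN NK1.1+ replicates 1 and 2 (adjusted p = 0.0628 to 0.167). Fcer2a, of the same list, had a larger fall than Fcgrt but did not pass the test (log2 fold change −2.73, edgeR adjusted p = 0.133).

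Genes of signalling downstream of the adaptors moved both ways. Of 33 such genes, 32 were tested, 9 rose and 10 fell, with a median log2 fold change of −0.02. Several related pairs held a riser and a faller. Lat, the scaffold of T cell receptor signalling, dropped from 170 ± 7.06 to 35.9 ± 2.39 CPM (log2 fold change −2.24), and Lat2, its relative in NK, B and myeloid cells, rose from 5.03 ± 0.793 to 54.0 ± 2.92 CPM (3.41). Plcg1 fell from 219 ± 8.77 to 61.3 ± 2.84 CPM (−1.83), and Plcg2, for the other phospholipase C gamma, rose from 17.8 ± 3.81 to 161 ± 9.66 CPM (3.19). The kinase gene Syk rose from 14.6 ± 3.12 to 96.4 ± 1.20 CPM (2.72), and Lyn, for a Src family kinase, rose by 2.84 on the log2 scale. Zap70, for the relative of Syk, was at 109 ± 10.8 and 113 ± 9.61 CPM (log2 fold change 0.05, edgeR adjusted p = 0.844). Pik3r1, for the phosphatidylinositol 3-kinase subunit that can bind the DAP10 motif, rose from 570 ± 80.0 to 980 ± 59.0 CPM (log2 fold change 0.78). Sh2d1b1, for the adaptor EAT-2, was at 1.17, 1.66 and 6.58 CPM and at 42.6, 51.1 and 54.2 CPM, and its log2 fold change was 3.98, or 5.06 without CD8 beta+ replicate 3. Its relative Sh2d1b2 had 0 counts over the CD8 beta+ group and 47 over the DN NK1.1+ group, and it passed the filter on low counts only through the latter.

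**Figure D4:**
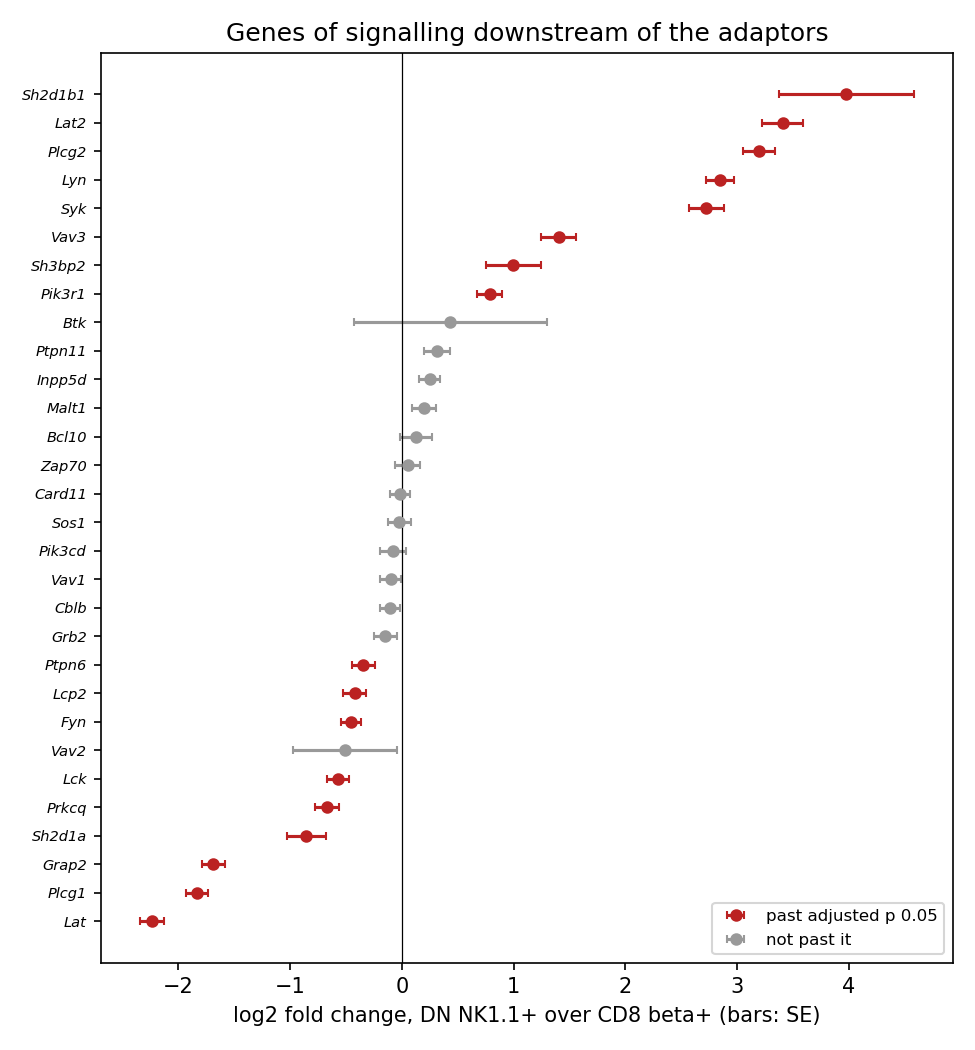
Log2 fold change (DN NK1.1+ over CD8 beta+) with SE of 30 tested genes of signalling downstream of the adaptors, in red where past an adjusted p of 0.05, with Sh2d1b2 left out because CD8 beta+ libraries held 0 counts of it and 1 more tested gene not shown. Sh2d1b1, Lat2 and Plcg2 lie farthest to the right, and Lat and Plcg1 farthest to the left.

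Of 6 genes listed around CD160, whose products do not all bind CD160 or HVEM, 1 rose and 2 fell. Tnfrsf14, for the CD160 ligand HVEM, was at 12.3, 18.1 and 12.1 CPM and at 15.7, 12.5 and 16.0 CPM, with overlapping groups (adjusted p = 0.934). Btla, for another receptor of HVEM, fell from 28.4 ± 4.95 to 5.04 ± 2.34 CPM. Ltb, for lymphotoxin beta, fell from 46.8 ± 8.91 to 23.5 ± 6.88 CPM, with an adjusted p of 0.0503 without CD8 beta+ replicate 1. Cd244a, for the SLAM family receptor 2B4, rose from 44.6 ± 8.81 to 235 ± 19.5 CPM. The DN NK1.1+ values of Cd160 itself, given above, lay inside its CD8 beta+ range.

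The genes whose profile over the 6 libraries was most like each of the 6 were found by the root mean square difference of log2 CPM, each gene centred on its own mean, among 9188 genes. Klra4 and Klra8 were nearest to Ncr1, at 0.751 and 0.795, followed by Khdc1a, which had 0 counts in each CD8 beta+ library and 289 over the DN NK1.1+ group. Gzma, for granzyme A, Lyn and Tnfrsf9, for the receptor 4-1BB, were nearest to Fcgr3, at 0.143 to 0.185. Anxa1, for annexin A1, was nearest to Fcer1g, at 0.0907, before Klhl4 and Trdc, the constant gene of the delta T cell receptor chain. Zfhx3, Pld1 and Klrb1f, for an NKR-P1 receptor, were nearest to Tyrobp, at 0.160 to 0.254. Ucp2, Rbm14 and Sidt2 were nearest to Hcst, at 0.0448 to 0.0584, and Lars, Hgsnat and Fbxo22 to Cd160, at 0.0418 to 0.0667. None of the 6 had another of them among its nearest 3. With a prior count of 2 in place of 0.5, 2 or 3 of the nearest 3 were the same for each.

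Fcgr3, Fcer1g and Tyrobp are also strongly expressed by macrophages, so markers of other cells were set beside them. In bulk samples, fewer cells of a type and less RNA per cell cannot be told apart. Of 15 macrophage and monocyte markers, 2 rose and 1 fell, and the list's sum was 790 to 895 CPM in CD8 beta+ libraries, against 488 to 610 CPM in DN NK1.1+ ones. Most of this was Ccr2 and Ly6c2, which lymphocytes express too. Without them the other 13, a subset chosen after their values were seen, had sums of 93.4, 118 and 163 CPM in CD8 beta+ libraries and 233, 115 and 181 CPM in the others, a ratio of means of 1.41. Csf1r, the defining receptor of macrophages, was at 12.7, 13.6 and 19.6 CPM and at 38.6, 21.3 and 24.7 CPM (log2 fold change 0.88, edgeR adjusted p = 0.0260), and its call ended without CD8 beta+ replicate 1 or 2 or DN NK1.1+ replicate 1 (adjusted p = 0.121 to 0.181). Lyz2, for lysozyme, was at 43.1, 60.1 and 86.0 CPM and at 110, 52.2 and 82.6 CPM. Fcgr1 and Fcgr4, the macrophage antibody receptors, were at or under 1.59 CPM in every library. In CD8 beta+ libraries the sum of the 13 markers was highest in replicate 3, as were Fcgr3, Fcer1g and Tyrobp. In DN NK1.1+ libraries it was highest in replicate 1, where Fcer1g and Tyrobp were lowest, and lowest in replicate 2, as was Fcgr3. The part of macrophages in the low CD8 beta+ levels of these genes was not tested.

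Of 7 mast cell and basophil markers, whose cells use the FcR gamma chain for their receptor of IgE, the 2 that could be tested rose. Both needed their DN NK1.1+ levels to pass the filter on low counts, so a fall could hardly have been counted. Kit rose from 2.72, 0.577 and 0.308 CPM to 14.2, 12.0 and 17.9 CPM (log2 fold change 3.71, or 4.96 without CD8 beta+ replicate 1), and Mcpt4 was at 0.168 ± 0.291 and 2.58 ± 1.05 CPM. Of the 5 untested ones, Cpa3 had 3 counts over the CD8 beta+ group and 71 over the DN NK1.1+ group, and Tpsb2 had 2 and 54. For neither did the groups overlap. Mcpt8 had 0 and 5 counts. The IgE receptor's own chains Fcer1a and Ms4a2 were at or near 0, at 1 and 2 counts in all. The part of mast cells in the levels of Fcer1g and Fcgr3 was not tested. Of 12 NK cell and innate lymphoid markers, 11 were tested and 8 rose, Itga1 having the highest CPM. Among the 8 was Klrb1c, whose rise follows from the sort. Eomes, Tbx21 and Il7r did not pass the test (log2 fold change 0.14, 0.53 and −1.73, edgeR adjusted p = 0.392, 0.0572 and 0.174). Of 8 conventional T cell markers 7 fell, though Cd3g and Cd3e stayed high in DN NK1.1+ libraries. Of 7 neutrophil markers 3 were tested and 0 passed in either direction (0 also at an unadjusted p under 0.05, with DESeq2 and with limma-voom), S100a9 staying at or under 5.14 CPM. Of 9 dendritic cell markers 7 were tested and 1 rose, Itgax, and Cd74 did not pass the test (adjusted p = 0.298), though it was called higher without DN NK1.1+ replicate 2 (log2 fold change 0.49, adjusted p = 0.0116). Of 7 B cell markers 1 rose, Ighm, and 1 fell, Cd79b. Of 7 luminal epithelial markers 1 rose, Epcam, which was even among DN NK1.1+ libraries at 30.7, 32.7 and 32.2 CPM. The milk protein gene Csn2 was uneven there, from 139 to 911 CPM, beside 290 to 446 CPM in CD8 beta+ libraries. DN NK1.1+ replicate 3, with the most Csn2, also had the highest Fcer1g, Tyrobp and Hcst of its group, and the part of this in those levels was not tested.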

How the data were processed

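Bulk RNA was measured in 6 libraries, 3 per group. The authors deposited 1 table, read here as estimated counts for each gene (expected counts), a unit inferred from the values, since the labels do not state it. The submitters' processing notes list mm10 and Cell Ranger 7.1.0, a single-cell tool. For bulk RNA, the aligner, the counting tool, its annotation and its strand setting were not given in the sources used here. Ensembl IDs and symbols stand under each other's headings. All 55450 IDs matched GENCODE M21, from which coordinates and exon lengths come. Counts were rounded. Totals were 7961360 to 14367299 per library, so that 1 count was worth 0.0696 to 0.126 CPM before scaling. Within a group, the chi-square statistic between libraries was 9.46 to 25.7 per degree of freedom, so none was a copy of another.

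Counts were tested with edgeR 4.0.16 in R 4.3.3 (robust quasi-likelihood fit, group alone, TMM, minimum count 10, minimum total 15), two-sided, with Benjamini-Hochberg adjustment over 13171 genes and a threshold of 0.05. SEs come from the F statistic, and intervals are at 95%. Intervals and floors cover the spread or counting error of these libraries only. The interval of Ncr1 falls short of the counting error of its 14 counts in CD8 beta+ libraries. On simulated counts of 13171 genes, 81 were changed by 1.5-fold, 56 by 2-fold and 63 by 4-fold. Of these, 23.5%, 67.9% and 77.8% were recovered, and 2.75% of calls were false. Each gene was given the spread typical of its level, with none of its own, and far fewer genes were changed than the data called. These rates may thus not hold for the real comparison. Same-numbered replicates did not deviate together in every pair and were not treated as pairs, but whether the numbers mark pairs is not known. The 6 genes, the 6 pathway lists and the 8 marker lists were chosen with earlier results of these data known. Genes were named by a rule: the 6 genes, the 2 highest and the most changed genes of each pathway list, the highest of each marker list, the nearest protein-coding gene on each side and the 3 most similar genes. Others given as examples were chosen after their values were seen. Some genes that the rule names are not reported here. Alternatives were RLE, upper quartile and no scaling, 2 other filters, unrounded counts, DESeq2 1.42.0, limma-voom (limma 3.58.1), a replicate block and leaving out each library.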

Additional observations from a re-analysis of the deposited data

How the results depend on the processing

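Ncr1, Fcgr3, Fcer1g, Tyrobp and Cd160 kept their direction and their side of the threshold in all 15 alternatives. Leaving out 1 library moved the log2 fold change of Ncr1 between 8.86 and 9.43, of Fcer1g between 3.56 and 3.85, of Tyrobp between 3.84 and 4.34, of Hcst between −0.41 and −0.15 and of Cd160 between 0.08 and 0.38. Hcst was called lower without DN NK1.1+ replicate 3, which made the count of the 6 genes called lower run from 0 to 1. Over all genes, leaving out 1 library gave 681 to 1093 higher and 499 to 883 lower calls, the fewest without CD8 beta+ replicate 1. With the replicate block, all 4 calls among the 6 genes held, 2 dendritic cell markers were higher and 4 B cell markers lower. The block gave 1137 higher and 945 lower genes. The deviations of same-numbered libraries correlated at −0.05, 0.19 and 0.26, and those of differently numbered ones at −0.25 to 0.11. Replicates 2 and 3 thus correlated above every differently numbered pair, and replicate 1 did not. These values do not settle whether the numbers pair the samples, and the main fit did not pair them. Without the filter on low counts, 4 macrophage and monocyte, 2 dendritic cell and 4 mast cell markers were higher and 4 B cell markers lower. With DESeq2, 2 dendritic cell and 4 mast cell markers were higher and 1 marker of NK and innate lymphoid cells lower. Leaving out 1 library gave 0 to 4 higher macrophage markers, 1 to 2 higher dendritic cell markers, 1 to 2 higher mast cell markers, 0 to 2 lower B cell markers, 0 to 1 lower NK and innate lymphoid markers, 1 to 3 lower receptors for antibody and 1 to 2 lower genes around CD160. Among genes that never passed the test, the sign turned when 1 library was left out for Csn2 (log2 fold change −0.47 to 0.817), Fbxo22 (−0.0144 to 0.367), Fcgr4 (−0.422 to 1.096), Nfkbid (−0.229 to 0.0263), Rnf115 (−0.0511 to 0.18) and Tnfrsf14 (−0.0656 to 0.263). The cause of these changes beyond the smaller number of libraries or the other set of tested genes was not tested. Depth limits Ncr1 in CD8 beta+ libraries, where it rests on 14 counts.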
